A study of Mus musculus with 12 samples.

Results

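The genes of MHC class II antigen presentation were followed across liver and tumor of mice given a T cell-dependent bispecific antibody (TDB) or vehicle. The 10 members were found by symbol, through GENCODE M21, among 52636 gene identifiers of the deposited count table: the class II chains H2-Aa, H2-Ab1 and H2-Eb1, the invariant chain Cd74, the peptide exchange factor subunits H2-DMa and H2-DMb1, the subunits of its inhibitor H2-Oa and H2-Ob, the transactivator Ciita and the protease Ctss. The study measured bulk RNA of dissociated tissue, liver or tumor, in FVB/NJ females. Each mouse carried a transplanted piece of Fo5, a tumor from an MMTV-HER2-transgenic founder, in its mammary fat pad. Treatment began when tumors averaged 350 to 500 mm3. The liver vehicle and tumor vehicle groups received buffer intravenously. The liver TDB and tumor TDB groups received 1 intravenous dose of anti-HER2(4D5-2C11)/CD3 at 5 mg/kg, an antibody that binds HER2 with one arm and CD3 on T cells with the other. Organs of all groups were taken 24 h later. Each of the 4 groups has 3 libraries, and the design text gives 3 mice per treatment. Fo5 is a single transplanted line, the MMTV promoter drives HER2 in mammary epithelium, and all mice, controls included, bore tumors.

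MHC class II molecules show peptides from endosomes to CD4 T cells. The alpha and beta chains assemble on the invariant chain Cd74, which blocks the groove and leads the complex to endosomes. Cathepsin S (Ctss) trims Cd74 to a short remnant, which H2-DM exchanges for antigenic peptide, and H2-DO holds H2-DM back. Ciita is a coactivator that does not bind DNA itself but joins factors bound at the X and Y boxes of class II promoters, and interferon-gamma induces it, with Irf1 among the factors involved. B cells, dendritic cells and macrophages are the main class II-bearing cells, while most epithelial cells carry little class II without interferon-gamma. Ctss is expressed widely in macrophages and dendritic cells.

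Of the members, 7 lie in the H2 complex on chromosome 17. Promoter windows from the RefSeq table of GRCm38.p6 matched 7 of 10 members (no entry for H2-Ab1, Cd74 and Ciita). Up to 140 bases before the start are printed for 4 members whose windows carry a box that Ciita's partners are known to bind, or an interferon-stimulated element, each ending before the first annotated exon base. H2-DMb1 and H2-Oa carry boxes too, which are given by position only. Those of H2-DMb1 lie wholly past the gene's start in GENCODE M21 (34153072), and that of H2-Oa crosses its start (34092340). Capitals mark the X box core AACNNNTGA, the Y box core TGATTGG and, in Ctss, the interferon-stimulated response element GAAANNGAAA.
H2-Eb1: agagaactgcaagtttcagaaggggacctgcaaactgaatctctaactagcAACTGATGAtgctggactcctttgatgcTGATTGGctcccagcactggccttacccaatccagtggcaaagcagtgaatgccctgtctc
H2-Ob: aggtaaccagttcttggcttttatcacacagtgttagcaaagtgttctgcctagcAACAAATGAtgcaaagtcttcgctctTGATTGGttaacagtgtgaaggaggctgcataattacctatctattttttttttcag
H2-Aa: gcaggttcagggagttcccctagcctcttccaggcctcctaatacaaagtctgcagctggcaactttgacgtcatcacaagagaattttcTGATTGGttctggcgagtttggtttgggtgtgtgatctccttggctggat
Ctss: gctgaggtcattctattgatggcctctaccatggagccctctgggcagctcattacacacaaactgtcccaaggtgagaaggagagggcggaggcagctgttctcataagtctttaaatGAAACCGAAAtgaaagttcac

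These lie at chr17:34305727-34305866 on the plus strand (H2-Eb1), chr17:34238765-34238902 on the plus strand (H2-Ob), chr17:34287824-34287963 on the minus strand (H2-Aa) and chr3:95526646-95526785 on the plus strand (Ctss). Both strands of the 140 bases before each start were searched, with motifs chosen after the windows had been seen. The Y box core was found for H2-Aa, H2-Eb1, H2-DMb1, H2-Oa and H2-Ob, and in 5.54% of 32851 windows of this length. The X box core was found for H2-Eb1, H2-DMb1 and H2-Ob, and in 5.35% of windows. Relative to the RefSeq start, the X box core of H2-DMb1 lay at -92 to -84 and its Y box core at -63 to -57, and the Y box core of H2-Oa lay at -45 to -39. An X box core followed by a Y box core on the strand of the gene, with starts 25 to 30 bases apart, occurred in 7 windows (0.0213%). Those 7 belong to H2-Eb1 (28 bases apart), H2-DMb1 (29), H2-Ob (26), the DM beta copy H2-DMb2, and 1700048F04Rik, BC051142 and H2bc9. The pair rule uses motifs chosen after the members' windows were seen, so its share is not an independent background. The interferon-stimulated element of Ctss, 21 to 12 bases before the start on the plus strand, occurred in 1.47% of windows. The interferon-gamma activated site TTCNNNGAA occurred in 3.75% of windows and in none of those of the members. The 2 windows of H2-DMa held none of these letters.

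Liver libraries held 18460159 to 25542980 gene counts and tumor libraries 20796764 to 29396324. Tissue labels went with their markers: 5 hepatocyte genes summed to 146000 to 273000 CPM (library-size scaled counts, with TMM factors) in liver libraries and to at most 23.8 CPM in tumor libraries. The 6 tumor epithelium genes summed to 14000 to 16500 CPM in tumor libraries and 390 to 899 CPM in liver libraries. Liver TDB 3 stood apart with 2.052% mitochondrial counts, against 0.847% to 1.279% in the other liver libraries, and the liver comparison is given with and without it. Levels are CPM, and comparisons are log2 fold changes, each with a standard error (SE), from edgeR's quasi-likelihood test, with p-values adjusted by Benjamini-Hochberg over all genes tested and a threshold of 0.05. In bulk tissue, fewer or more cells of a type cannot be told apart from less or more RNA per cell.

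In tumor, all 9 members that could be tested were higher with TDB, by 1.84 to 5.58 on the log2 scale. In that comparison 15.8% of 15454 genes tested were called higher. The members' median log2 fold change was 4.01, beside -0.02 over all genes tested, and the tenth member, H2-Oa, was too low for the count filter. H2-Ob met that filter only through its TDB libraries (37 counts over the vehicle and 158 over the TDB libraries). Its place among the 9 is thus not independent of its rise. Each TDB library lay above each vehicle library for 10 of 10 members, which was so for 17.7% of genes tested. The counts of all 10 members together took 0.0306%, 0.0153% and 0.0248% of the tumor vehicle libraries and 0.275%, 0.255% and 0.204% of the tumor TDB libraries. The mean share went from 0.0236% ± 0.0077 to 0.245% ± 0.0369 (SD, n = 3; exact two-sided permutation p = 0.1, the smallest that 3 against 3 allows).

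**Figure D1:**
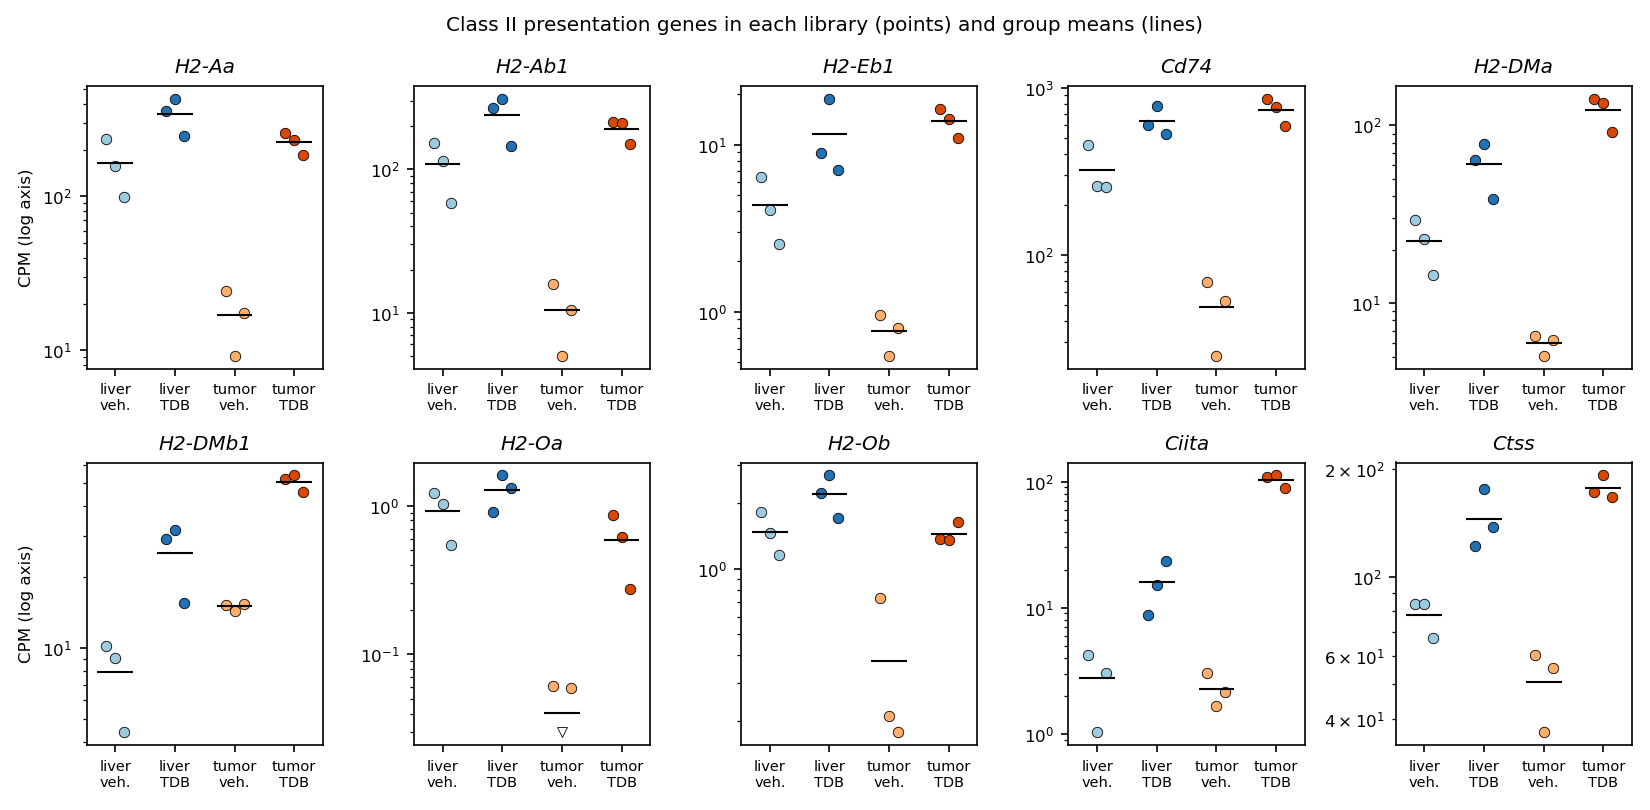
Level of each member in each of the 12 libraries (points; vertical log axis, CPM) with the group mean as a line, by tissue and treatment; the open triangle in the panel of H2-Oa marks a library with 0 counts, drawn at the foot of the panel. In the tumor panels the 3 TDB libraries lie above the 3 vehicle libraries for each of the 10 members.

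The class II chains rose together in tumor. H2-Aa, the alpha chain of I-A (ENSMUSG00000036594, GRCm38 chromosome 17, 34282744 to 34287823), was at 24.1, 9.19 and 17.5 CPM in the tumor vehicle libraries and at 257, 233 and 187 CPM with TDB. TDB libraries were thus higher by 3.82 on the log2 scale (SE 0.38, adjusted p = 0.0012). H2-Ab1, the beta chain of I-A (ENSMUSG00000073421, chromosome 17, 34257689 to 34269419), was at 15.8, 5.01 and 10.5 CPM with vehicle and 215, 211 and 150 CPM with TDB. The rise was 4.29 on the log2 scale (SE 0.44, adjusted p = 0.0016). For both chains tumor vehicle 2 was the lowest vehicle library and tumor TDB 3 the lowest TDB library, and the lowest TDB value was still above the highest vehicle value.

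H2-Eb1, the beta chain of I-E (ENSMUSG00000060586, chromosome 17, 34305867 to 34316674), has the paired X and Y box cores printed above. It had 0.952, 0.546 and 0.799 CPM in the vehicle libraries and 16.3, 14.2 and 10.9 CPM in the TDB libraries (log2 fold change 4.25, SE 0.23, adjusted p = 3.3e-06). The antisense gene Gm20513 overlaps it, and without known strand their reads cannot be told apart. Cd74, the invariant chain (ENSMUSG00000024610, chromosome 18, 60803848 to 60812652), had 68.4, 24.9 and 52.9 CPM with vehicle and 859, 767 and 590 CPM with TDB. It rose by 4.01 (SE 0.42, adjusted p = 0.0015), and the order of libraries was that of the I-A chains.

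The peptide exchange subunits did not move by the same amount. H2-DMa (ENSMUSG00000037649, chromosome 17, 34119541 to 34139101) was at 6.57, 5.07 and 6.24 CPM in the vehicle libraries and at 141, 133 and 91.6 CPM in the TDB libraries, higher by 4.44 on the log2 scale (SE 0.2, adjusted p = 7.1e-06). H2-DMb1 (ENSMUSG00000079547, chromosome 17, 34153072 to 34160230) was at 15.3, 14.4 and 15.4 CPM with vehicle and at 51.9, 54 and 45.7 CPM with TDB, higher by 1.84 (SE 0.08, adjusted p = 1.1e-06). Per kilobase of exonic length, the group means in tumor vehicle libraries were 1.73 CPM per kb for H2-DMa and 8.93 for H2-DMb1, and with TDB 35.3 and 30.1. H2-DMb1 has a near-identical neighbour, H2-DMb2, and the split of reads between them is uncertain. The span of H2-DMa overlaps Brd2 on the other strand.

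H2-DO stayed at low counts. H2-Oa, its alpha subunit (ENSMUSG00000024334, chromosome 17, 34092340 to 34095234, overlapped by the antisense gene BC051537), had 4 counts over the tumor vehicle libraries and 65 over the TDB libraries. The count ratio, scaled for depth, was 14.7 with a 95% exact counting interval of 5.47 to 55.5, which covers counting error only. Its levels were 0.0614, 0 and 0.0592 CPM with vehicle and 0.864, 0.618 and 0.276 CPM with TDB. H2-Ob, the beta subunit (ENSMUSG00000041538, chromosome 17, 34238903 to 34254414), was at 0.737, 0.212 and 0.178 CPM with vehicle and 1.37, 1.35 and 1.63 CPM with TDB. It rose by 2.03 (SE 0.46, adjusted p = 0.011), or by 2.96 without tumor vehicle 1, its highest vehicle library.

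Ciita (ENSMUSG00000022504, chromosome 16, 10480059 to 10528418, overlapped by Dexi on the other strand) had the highest log2 fold change of the members tested in tumor. It was at 3.04, 1.67 and 2.13 CPM in the vehicle libraries and 108, 112 and 88.5 CPM in the TDB libraries (log2 fold change 5.58, SE 0.2, adjusted p = 1.4e-06). Ctss (ENSMUSG00000038642, chromosome 3, 95526786 to 95556403) was already at 60.4, 36.7 and 55.4 CPM with vehicle and reached 173, 192 and 167 CPM with TDB. It rose by 1.89 on the log2 scale (SE 0.18, adjusted p = 0.00038). The 9 tested members passed the threshold under each of 13 alternative analyses in tumor.

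In liver, 0 of 10 members passed the threshold by edgeR, where 0.513% of 13657 genes tested were called higher. All 10 log2 fold changes were above 0, with a median of 1.15 beside 0.04 over all genes, and adjusted p-values ran from 0.15 to 0.82. At an unadjusted p under 0.05, 8 members were higher, against 5.84% of genes. DESeq2 called 4 of them higher (Ciita, Ctss, H2-DMa and H2-DMb1, against 1.81% of genes) and limma-voom 0 (against 0.461%). For 7 members each TDB library lay above each vehicle library, which was so for 8.18% of genes, and the groups of H2-Ab1, H2-Oa and H2-Ob overlapped. Without liver TDB 3, edgeR called 2 members higher, H2-DMa (1.72, adjusted p = 0.03) and H2-DMb1 (1.98, adjusted p = 0.032), against 1.09% of 13888 genes. The other log2 fold changes were then 1.31 for H2-Aa, 1.45 for H2-Ab1, 1.73 for H2-Eb1, 1.13 for Cd74, 0.49 for H2-Oa, 0.77 for H2-Ob, 2.16 for Ciita and 0.97 for Ctss, with adjusted p-values from 0.096 (Ctss) to 0.84 (H2-Oa).

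H2-Aa in liver was at 236, 158 and 99.1 CPM with vehicle and at 359, 432 and 248 CPM with TDB (log2 fold change 1.12, SE 0.35, adjusted p = 0.36). H2-Ab1 was at 154, 115 and 58.6 CPM with vehicle and at 267, 311 and 145 CPM with TDB, so that liver TDB 3 fell below liver vehicle 1 (log2 fold change 1.18, SE 0.4, adjusted p = 0.44). H2-Eb1 went from 4.33 ± 1.95 to 11.6 ± 6.34 CPM (SD, n = 3) and Cd74 from 322 ± 115 to 634 ± 129 CPM. Liver TDB 2 was the highest library for these 4 genes and liver vehicle 3 the lowest.

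H2-DMa was at 29.3, 23.1 and 14.5 CPM in liver with vehicle and at 63.9, 78.7 and 38.5 CPM with TDB (log2 fold change 1.48, SE 0.35, adjusted p = 0.19). H2-DMb1 was at 10.2, 9.11 and 4.4 CPM with vehicle and at 29.1, 31.6 and 15.5 CPM with TDB (log2 fold change 1.72, SE 0.41, adjusted p = 0.19). H2-Oa was at 0.54 to 1.21 CPM with vehicle and at 0.914 to 1.6 CPM with TDB, and H2-Ob at 1.16 to 1.82 and at 1.7 to 2.68 CPM, with the groups overlapping for both. The DO subunits had the lowest log2 fold changes of the members in liver, 0.51 (SE 0.44) and 0.62 (SE 0.35).

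Ciita in liver was at 4.25, 1.03 and 3.01 CPM with vehicle and at 8.81, 15.2 and 23.5 CPM with TDB. Its estimate of 2.57 on the log2 scale (SE 0.56, adjusted p = 0.15) was the largest of the 10 members there too. Its highest library was liver TDB 3, which was the lowest TDB library for H2-Aa, H2-Ab1, H2-Eb1, Cd74, H2-DMa and H2-DMb1. Ctss was at 83.9, 83.8 and 67.2 CPM with vehicle and at 122, 176 and 138 CPM with TDB, and the groups did not overlap (log2 fold change 0.94, SE 0.22, adjusted p = 0.18). All 10 members together took 0.0442% ± 0.0152 of the counts of liver vehicle libraries and 0.102% ± 0.0222 with TDB (SD, n = 3; exact two-sided permutation p = 0.1, the smallest possible). The difference in share was 0.0574 percentage points, 0.0656 without liver TDB 3, and 0.0948 when the 100 genes of highest mean share were left out of the totals.

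**Figure D2:**
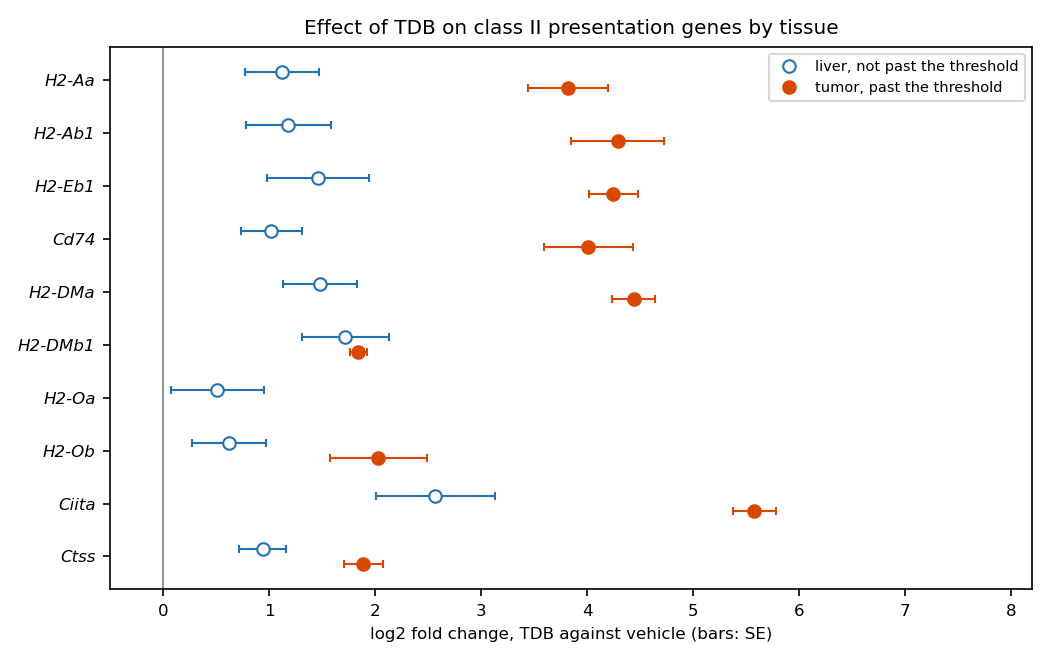
Log2 fold change of TDB against vehicle (horizontal axis) with its SE for each member, in liver (blue, open: adjusted p not under 0.05) and in tumor (orange, filled: adjusted p under 0.05); H2-Oa was not tested in tumor. The tumor estimates lie to the right of the liver estimates except for H2-DMb1, where 1.84 and 1.72 nearly coincide.

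Whether the antibody's effect differed between tissues was tested over the 12 libraries as an interaction, with liver and tumor libraries treated as unpaired. The effect was larger in tumor for 6 of 10 members, where 1.83% of 16557 genes tested were called so. These were both I-A chains, H2-Eb1, Cd74, H2-DMa and Ciita. The difference on the log2 scale was 2.66 (SE 0.52, adjusted p = 0.018) for H2-Aa, 3.06 (SE 0.61, adjusted p = 0.02) for H2-Ab1 and 2.74 (SE 0.59, adjusted p = 0.028) for H2-Eb1. It was 2.95 (SE 0.5, adjusted p = 0.0084) for Cd74, 2.91 (SE 0.43, adjusted p = 0.0038) for H2-DMa and 2.97 (SE 0.61, adjusted p = 0.023) for Ciita.

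The other 4 members did not pass. H2-DMb1 had a difference of 0.06 (SE 0.43, adjusted p = 1.0), Ctss had 0.91 (SE 0.29, adjusted p = 0.17), H2-Ob had 1.36 (SE 0.62, adjusted p = 0.39) and H2-Oa 3.24 (SE 0.87, adjusted p = 0.09). Cd74 and H2-DMa passed in each of 18 alternatives. The count of members fell to 2 without liver vehicle 1, tumor TDB 1 or tumor TDB 2 and to 3 without tumor vehicle 3, with adjusted p-values of the lost calls from 0.052 (H2-Aa without tumor TDB 2) to 0.09 (Ciita without liver vehicle 1). H2-Eb1 also missed the threshold without liver vehicle 2, tumor vehicle 1 or tumor vehicle 2, and Ciita without liver vehicle 3, liver TDB 2 or tumor vehicle 2.

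The tissues also differed without antibody. Tumor vehicle libraries held less than liver vehicle libraries of 8 of 10 members, against 36.1% of 16557 genes called lower. The differences ran from -0.62 (SE 0.21) for Ctss to -4.35 (SE 0.71) for H2-Oa, with -3.28 (SE 0.4) for H2-Aa, -3.39 (SE 0.47) for H2-Ab1 and -2.73 (SE 0.37) for Cd74. H2-DMb1 was higher in tumor, by 0.93 (SE 0.31, adjusted p = 0.016), against 39.5% of genes called higher (adjusted p = 0.054 without liver vehicle 3). Ctss missed the threshold without liver vehicle 1 or tumor vehicle 2 (adjusted p = 0.056 and 0.076). Ciita was at 2.28 ± 0.698 CPM in tumor vehicle and 2.76 ± 1.62 CPM in liver vehicle libraries (SD, n = 3), a difference of -0.28 (SE 0.46, adjusted p = 0.59).

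With antibody, 3 members were higher in tumor than in liver, against 36.6% of genes: Ciita by 2.70 (SE 0.42, adjusted p = 0.00011), H2-DMa by 1.01 (SE 0.3, adjusted p = 0.0087) and H2-DMb1 by 0.99 (SE 0.3, adjusted p = 0.0099). H2-Oa was lower, by -1.11 (SE 0.47, adjusted p = 0.049), against 35.5% of genes, a call that held in 4 of 17 alternatives. For H2-Aa (226 ± 35.7 CPM in tumor TDB and 347 ± 92.7 in liver TDB), H2-Ab1, H2-Eb1, Cd74 (738 ± 137 and 634 ± 129 CPM), H2-Ob and Ctss (177 ± 12.8 and 146 ± 27.9 CPM) the tissues did not pass the test. The order of the group means of Ciita was thus tumor TDB at 103 ± 12.5, liver TDB at 15.8 ± 7.37, then liver vehicle and tumor vehicle, which did not differ beyond their spread.

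Per kilobase of exonic length, Cd74 was the most abundant member in 3 groups, at 192 CPM per kb in liver vehicle, 377 in liver TDB and 440 in tumor TDB libraries (group means). In tumor vehicle libraries Ctss was at 37.4 and Cd74 at 29 CPM per kb. The I-A chains lay close together, at 43.3 (H2-Aa) and 42.5 (H2-Ab1) CPM per kb in liver vehicle and at 59.4 and 74.8 in tumor TDB libraries. H2-Eb1 reached 7.09 CPM per kb in tumor TDB libraries and Ciita 10.8. H2-Oa and H2-Ob were at 0.416 and 0.269 CPM per kb there, against 35.3 for H2-DMa and 30.1 for H2-DMb1. Exonic length takes in every annotated exon, used or not, so the order of genes by these values also depends on the annotation.

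**Figure D3:**
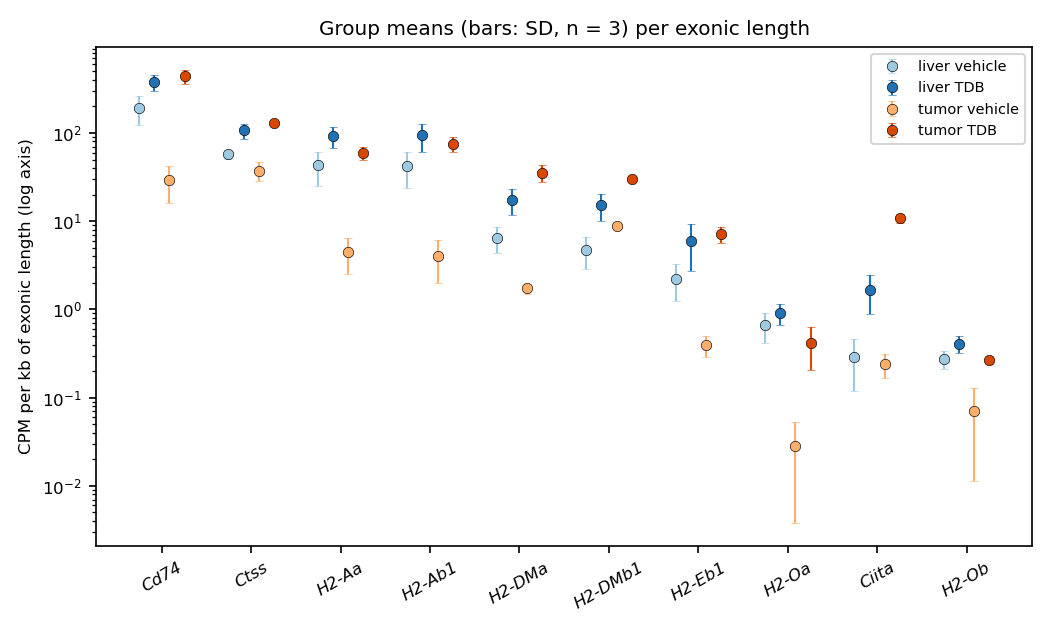
Group mean level per kb of exonic length (vertical log axis, CPM per kb) with SD (n = 3) for each member, ordered by the mean in liver vehicle libraries. Cd74 is at 440 and the DO subunits H2-Oa and H2-Ob at 0.416 and 0.269 in tumor TDB libraries.

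Count ratios of members within a library need no scaling between libraries, and were compared between groups. They are not corrected for length, so their size does not order the genes by level. The log2 ratio of H2-DMa to H2-DMb1 counts was -1.22, -1.5 and -1.3 in tumor vehicle libraries and 1.44, 1.3 and 1.0 in tumor TDB libraries, and 1.13 to 1.72 in liver libraries. As a count ratio this was 0.395 in tumor vehicle, 2.38 in tumor TDB, 2.88 in liver vehicle and 2.39 in liver TDB libraries (exact two-sided permutation p = 0.1 in each tissue, the smallest possible). Each tumor vehicle library held fewer H2-DMa than H2-DMb1 counts, and each of the other 9 libraries held more.

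The I-A alpha to beta ratio went from 1.67 to 1.18 in tumor (exact permutation p = 0.1) and was 1.53 and 1.47 in liver (exact permutation p = 0.8). The ratio of Cd74 to H2-Ab1 went from 4.77 to 3.85 in tumor (exact permutation p = 0.1) and was 3.06 and 2.73 in liver (exact permutation p = 0.6). H2-DMa counts were 24.4 times those of H2-Oa in liver vehicle libraries and 46.6 times with TDB (exact permutation p = 0.1), a log2 difference of 0.934, or 1.27 without liver TDB 3. In tumor that ratio was 227 with TDB and 106 over the 2 vehicle libraries with an H2-Oa count (exact permutation p = 0.2). The ratio of H2-Oa to H2-Ob was 0.603 and 0.574 in liver (exact permutation p = 0.8) and 0.167 and 0.366 in tumor (exact permutation p = 0.4). The tumor vehicle values of both ratios rest on 2 libraries with 2 H2-Oa counts each. The log2 difference of H2-Oa to H2-Ob in tumor, 1.13, was 0.135 without tumor vehicle 1 and 2.13 without tumor vehicle 3. In liver without liver TDB 3 the log2 differences were -0.158 for H2-Aa to H2-Ab1, -0.375 for Cd74 to H2-Ab1, -0.303 for H2-DMa to H2-DMb1 and -0.285 for H2-Oa to H2-Ob.

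**Figure D4:**
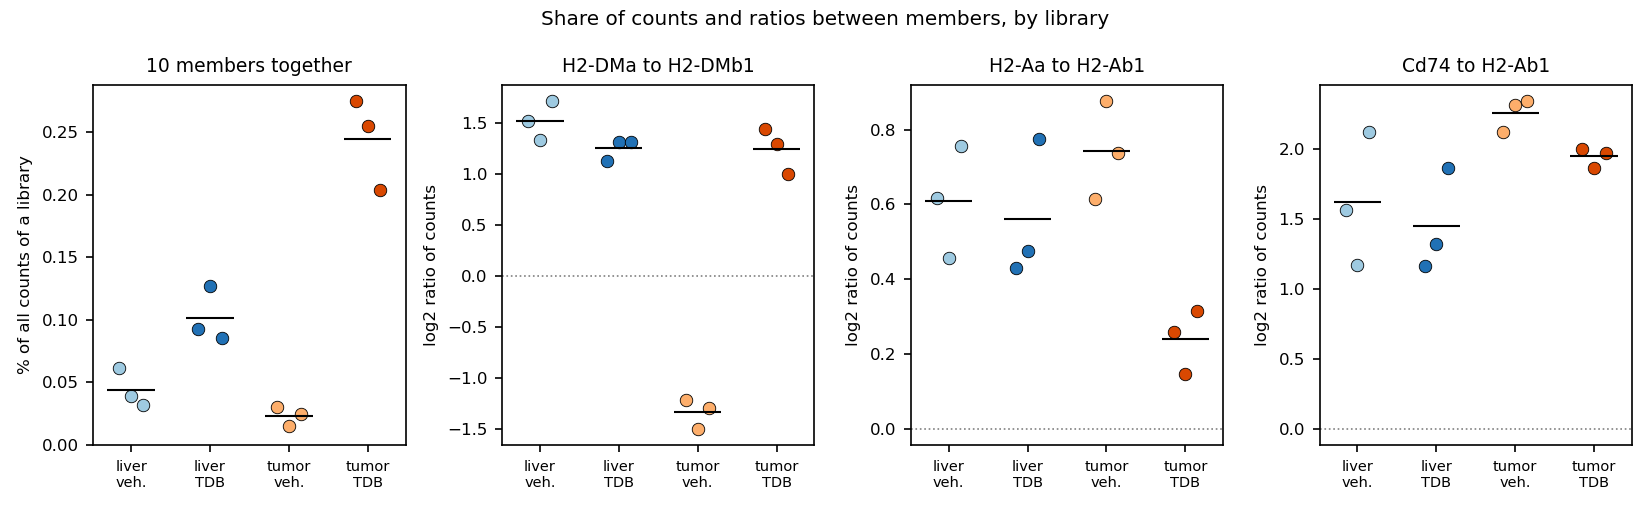
Share of all counts taken by the 10 members (left, percent) and log2 count ratios between members (other panels) in each library (points) with group means (lines). The H2-DMa to H2-DMb1 ratio is below 0 in the 3 tumor vehicle libraries and between 1.0 and 1.72 in the other 9.

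Other genes of the pathway were counted by list. Over all genes tested, 15.8% were called higher in tumor and 0.513% in liver. Of 3 further class II genes, 3 rose in tumor and 0 of the 2 tested passed in liver. H2-Eb2, a second I-E-like beta gene, had 0 counts in tumor vehicle and 79 in tumor TDB libraries, at least 23.8-fold higher against a floor of 3 counts over the group (the exact 95% counting interval of the ratio starts at 18.9). H2-Ea-ps, the I-E alpha gene annotated as a pseudogene, rose in tumor by 4.6 (SE 0.28), and H2-DMb2, the DM beta copy, by 1.71 (SE 0.13), close to the 1.84 of H2-DMb1. H2-Eb2 and H2-Ea-ps, with 0 and 17 counts over the tumor vehicle libraries, met the count filter there only through the TDB libraries.

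Genes that carry the signal to Ciita were also examined. Ifng, the cytokine itself, had 0 counts in tumor vehicle and 542 in tumor TDB libraries, at least 163-fold higher against the same floor (exact 95% interval from 132). Liver held 3 counts with vehicle and 12 with TDB, 10 of them in liver TDB 2. Irf1, a transcription factor that acts at a Ciita promoter, rose by 4.69 (SE 0.1) in tumor and by 1.81 (SE 0.22, adjusted p = 0.018) in liver, and the difference passed (2.84, SE 0.24, adjusted p = 8.6e-05). Its liver call was lost without any 1 of liver vehicle 1, 2 or 3 or liver TDB 2 (adjusted p = 0.2, 0.14, 0.14 and 0.086). Jak2, a kinase of the interferon-gamma receptor, rose by 1.31 (SE 0.08) in tumor.

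Of 7 DNA-binding partners through which Ciita acts, 1 rose and 2 fell in tumor, all of them subunits of the X box factor. Over all 15454 genes tested in tumor, 2437 were called higher and 2019 lower. Rfx5 rose by 0.83 (SE 0.08, adjusted p = 0.085 in the fit on all 12 libraries). Rfxank fell by 0.39 (SE 0.09, adjusted p = 0.067 without tumor TDB 2 and 0.27 in the 12-library fit) and Rfxap fell by 0.31 (SE 0.09), a call that held in 4 of 12 alternatives. The other 4 did not pass, and in liver 0 of 7 passed. Of 8 genes for endosomal enzymes or their inhibitor Cst3, 3 rose in tumor and 0 passed in liver. These were the cathepsins Ctsb (0.9, SE 0.11) and Ctsz (0.79, SE 0.09) and the thiol reductase Ifi30 (0.22, SE 0.07), whose call held in 3 of 12 alternatives. Of 5 tested genes of class II surface turnover and costimulation, 4 rose in tumor. These were Cd40, the receptor for T cell help (3.73, SE 0.27), Cd86, a ligand of Cd28 (3.25, SE 0.31), March1, the ubiquitin ligase that removes class II from the surface (2.62, SE 0.17), and Cd83, which counters March1 (1.37, SE 0.26, adjusted p = 0.078 in the 12-library fit). In liver 0 of 6 passed.

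Many markers of class II-bearing cells rose with the members in tumor, and their part in the result was not tested. Over all genes tested in tumor 15.8% were called higher. The count filter can be met by the TDB libraries alone, so a marker low with vehicle could be tested only where TDB libraries were high. Xcr1, Clec9a, Ccr7, Ccl22, Siglech, Ccr9 and Ly6c2 entered this way, with 0 to 4 counts over the tumor vehicle libraries. So did T cell markers such as Cd3e, Cd3d and Cd5. The shares of tested markers that rose are therefore not independent of the rise. Of 10 monocyte and macrophage markers 6 rose and 4 did not pass. The summed level of the 10 went from 279 to 354 CPM in vehicle libraries to 864 to 1080 CPM with TDB. Most of that rise was Cd14 alone, at 131 and 691 CPM (group means). Of 8 tested conventional dendritic cell markers 5 rose, while the summed level was 25 to 41.5 and 28.7 to 31.7 CPM, and Clec9a was at 0 counts in tumor vehicle libraries. Much of that sum was Fscn1 (21.7 and 15.3 CPM, group means), which did not pass. Of 3 tested plasmacytoid dendritic cell markers 2 rose (summed 31.7 to 39.4 and 32.8 to 35.2 CPM). Most of that sum was Tcf4 (34.6 and 31.7 CPM, group means), which did not pass. The 10 B cell markers summed to 1 to 1.39 and 2.95 to 3.42 CPM, with Blk at 0 counts with vehicle, and the 1 that could be tested rose. Of 10 T cell markers 9 rose (2 to 3.9 and 11.1 to 18.9 CPM), with Cd3e at 0 counts with vehicle. Of 6 tumor epithelium genes 0 rose and 2 fell in tumor. These were Erbb2 (log2 fold change -0.58, SE 0.08) and Krt8 (-0.27, SE 0.09, adjusted p = 0.048). Whether reads of the HER2 transgene count toward Erbb2 was not tested. The 6 genes summed to 14000 to 16500 and 15600 to 16200 CPM, most of it Csn3 (13300 and 13800 CPM, group means).

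In liver 0 of 10 monocyte and macrophage markers passed (451 to 525 and 502 to 561 CPM) and 0 of 7 conventional dendritic cell markers (20 to 26 and 30.7 to 35.2 CPM). Of those 7, Clec9a came nearest (0.254 and 3.36 CPM, group means, log2 fold change 3.75, SE 0.61, adjusted p = 0.057), beside a median of 0.44. Plasmacytoid dendritic cell markers passed in 0 of 4 (12.5 to 15.2 and 11.8 to 29.9 CPM) and B cell markers in 0 of 6 (14.6 to 16.2 and 11.5 to 14.6 CPM). Of 6 Kupffer cell markers 1 rose (691 to 1050 and 720 to 936 CPM), and of 10 T cell markers 1 rose (18.1 to 21.8 and 41.8 to 51.4 CPM). Over all genes tested in liver 0.513% were called higher. Hepatocyte genes summed to 228000 to 273000 CPM with vehicle and 146000 to 189000 CPM with TDB, where 0 of 5 passed. The part of these shifts in the liver values was not tested.

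Members differed in how closely they followed the core of H2-Aa, H2-Ab1, H2-Eb1 and Cd74 over the 12 libraries. Pearson's r of log2 CPM with the core's mean was 0.936 for H2-DMa, 0.925 for H2-Ob, 0.919 for Ctss, 0.901 for H2-Oa, 0.677 for Ciita and 0.465 for H2-DMb1. Among genes that are not members, the 10 most like the core were Klrk1 (0.988), Fcgr4, Scimp, Gbp2b, Clec7a, Ly6c2, the class I gene H2-D1, Was, Pkib and Gm10499 (0.98). Fcgr4, an IgG receptor of myeloid cells, went from 1.01 to 16.2 CPM in tumor and from 9.51 to 24.5 CPM in liver (group means). These values describe 12 libraries that share group and tissue differences.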

How the data were processed

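The authors deposited whole-number gene counts, not normalized, for 12 libraries, per the file headers. Per the submitters' processing notes, GSNAP, limma and the build GRCm38 are named, with no role. Counter, annotation and strand setting: not given in the sources used here. Overlapping genes could therefore not be separated. A deposited FPKM table was not used here. GENCODE M21 gave symbols and positions for 52489 of 52636 identifiers. The members and gene lists were chosen with earlier results of these data known.

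The test was the robust quasi-likelihood F test of edgeR 4.0.16 under R 4.3.3 (TMM scaling, filterByExpr with minimum count 10 and minimum total 15, Benjamini-Hochberg adjustment, threshold 0.05). Liver and tumor were each fitted on 6 libraries, and tissue contrasts and the interaction on 12 with 4 group means. The script was tested on simulated data. Alternatives were median-of-ratios and upper quartile scaling, no filter, DESeq2 1.42.0, limma-voom (limma 3.58.1), a replicate block, 12-library fits and leaving out each library. CPM per kb divides by exonic length, the bases covered by any annotated exon of the gene. Shares and ratios were compared by exact permutation. In each further gene list up to 4 genes with the largest change past the threshold in tumor were named. In the list of genes signaling to Ciita 1 result is not reported here, so that list is given without counts. The design text gives 3 mice per treatment, so p-values of comparisons within a tissue measure the spread between mice. Library numbers are not tied to mice by the labels, so liver and tumor libraries were treated as unpaired although the same mice gave both. The p-values of the tissue contrasts and the interaction therefore leave that pairing out. Depth was 18460159 to 29396324 counts per library. The genome reference comes from another mouse strain, and what this costs in reads at the polymorphic H2 genes was not tested.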

Additional observations from a re-analysis of the deposited data

Results flagged for a closer look

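The response to TDB differed between tumor and liver by edgeR's interaction test for 6 of the 10 members. The tumor minus liver difference of the log2 fold change was 2.66 for H2-Aa, 3.06 for H2-Ab1, 2.74 for H2-Eb1, 2.95 for Cd74, 2.91 for H2-DMa and 2.97 for Ciita. Of these, Cd74 and H2-DMa passed in each of 18 alternatives, H2-Aa in 15, H2-Ab1 in 14, and H2-Eb1 and Ciita in 11.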

How the results depend on the processing

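In liver the count of members called higher (0) was 2 with no count filter, 4 by DESeq2, 7 with a replicate block, 3 with a fit on all 12 libraries (with 0.596%, 1.81%, 2.13% and 1.7% of all genes called higher, against 0.513%) and 0 to 2 when single libraries were left out, the 2 being without liver TDB 3. In tumor 9 to 10 members were called under the alternatives, 10 where H2-Oa could be tested. The interaction count of 6 was 6 to 8 under other tools and scalings and 2 to 6 without single libraries. In the tissue comparisons 8 to 9 members were called with vehicle and 3 to 4 with TDB. Upper quartile scaling moved the median of all genes between the TDB tissues from 0.06 to 0.2.

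Same-numbered libraries did not all deviate together. The correlation of their deviations from the group mean was -0.163, 0.565 and 0.687 in liver and 0.061, 0.022 and 0.337 in tumor over 10656 genes. In liver 2 of 3 pairs were thus above 0.1 and 1 was below 0, and in tumor 1 of 3 was above 0.1. Differently numbered pairs ran from -0.676 to 0.621 in liver and from -0.257 to 0.228 in tumor. Between liver and tumor, same-numbered libraries had -0.066, -0.092 and 0.158 with vehicle and 0.083, 0.04 and 0.163 with TDB. Differently numbered ones ran from -0.35 to 0.317 and from -0.157 to 0.13. Within a tissue, vehicle and TDB libraries come from different mice, so the replicate block there matches libraries of different mice by number alone. No label says what a number stands for. The 7 liver calls of that block are therefore listed only as an alternative and do not replace the main result.

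Directions changed when single libraries were left out for small differences in liver: H2-Aa to H2-Ab1 (0.0231 and 0.015; range -0.158 to 0.0231), Cd74 to H2-Ab1 (0.0837; range -0.392 to 0.0837) and H2-Oa to H2-Ob (0.0403 and 0.166; range -0.285 to 0.166). The same held for the interaction of H2-DMb1 (-0.17, -0.05 and -0.12; range -0.17 to 0.35) and Ciita between vehicle tissues (0.16; range -0.66 to 0.16). The cause was not tested. Depth limits H2-Oa, with 4 counts over the tumor vehicle libraries.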
